A study of Rattus norvegicus with 6 samples.

Results

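The corticotropin-releasing factor (CRF) system of the rat was read as 7 genes: the 4 peptides *Crh*, *Ucn*, *Ucn2* and *Ucn3*, the binding protein *Crhbp*, and the receptors *Crhr1* and *Crhr2*. They were selected by gene symbol alone and all 7 were found among the 38445 genes of the count files. The RNA came from the amygdala of adult male Sprague Dawley rats of the wild type, killed 1 h after an intraperitoneal injection of saline (control) or of ethanol at 1 g/kg. Both groups thus share the injection, the strain and the time, and differ in what was injected. Each library pools RNA from 2 rats, which makes 3 libraries of 6 rats per group, and the values of single rats are not seen. The whole amygdala was dissected, with no separation of its nuclei.

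CRF is a neuropeptide that starts the hormonal stress response when released from the hypothalamus, and in the amygdala it acts locally as a transmitter that promotes arousal and anxiety. It binds mainly to the receptor CRF1, whereas urocortin 2 and urocortin 3 prefer the receptor CRF2, and both receptors signal chiefly through the stimulatory G protein and cyclic AMP. The secreted CRF binding protein holds CRF and urocortin away from the receptors. The system has been studied for long in alcohol dependence, withdrawal and the anxiety that comes with it.

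The libraries held 62576504 to 70755739 reads assigned to genes. A gene's level is given as CPM, its counts relative to the library total, after scaling between libraries by edgeR's TMM method, and 3 counts correspond to 0.0422 to 0.0473 CPM. This floor covers counting error only, since the reads carry no molecular identifiers. All 12 marker genes of the central amygdala were detected, with a summed level of 592 to 803 CPM in control libraries and 679 to 815 CPM in ethanol libraries. All 9 markers of basolateral and cortical glutamatergic neurons were detected as well. The library ethanol 3 stood apart within its group. Its 8 markers of hypothalamic peptide neurons summed to 338 CPM against 20.4 to 123 CPM in the other libraries. Of the 338 CPM, *Pmch*, the melanin-concentrating hormone gene, gave 207 CPM. *Oxt*, *Pomc* and *Agrp* of this list were highest in other libraries, *Oxt* with 39.2 CPM in control 1 against 27.8 CPM in ethanol 3. The control libraries differed in this sum as well, with 123, 20.4 and 101 CPM. The basolateral sum of ethanol 3, 744 CPM, was the lowest of all, next to 814 CPM in control 1. *Etv1* was at 90.4 CPM in ethanol 3 against 156 CPM or more in the others. Single basolateral markers did not all follow, since *Tbr1* was higher in ethanol 3 than in all control libraries. Markers of the choroid plexus, the epithelium that makes cerebrospinal fluid, summed to 537, 1160 and 917 CPM in control libraries and to 14.6, 16.1 and 499 CPM in ethanol libraries. The *Crhbp* results and the ratios below are therefore also given without ethanol 3. Leaving it out keeps choroid plexus sums of 14.6 and 16.1 CPM after ethanol, against 537 to 1160 CPM in controls. With all 6 libraries the sums did not overlap either, at 537 to 1160 CPM in controls and 14.6 to 499 CPM after ethanol. Treatment and choroid plexus content thus cannot be told apart, with or without ethanol 3.

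After acute ethanol, no tested transcript of the CRF system differed from the controls past the threshold, and the largest difference was a lower *Crhr2* level with a fold of 0.843. Of the 7 genes, 5 had enough reads to be tested and *Ucn* and *Ucn2* did not. After Benjamini-Hochberg adjustment of edgeR's quasi-likelihood F test over 18141 genes, 0 of the 5 had an adjusted p below 0.2, beside 0% of all genes tested. At an unadjusted p below 0.05, 1 of the 5 was called, *Crhr2*, which was lower in the ethanol group. Over all genes 2.58% were called lower at that limit and 1.57% higher. The groups overlapped for all 5, whereas 8.85% of all genes tested had groups that did not overlap, 3.65% with the ethanol group higher and 5.19% with it lower. No alternative test gave any of the 5 an adjusted p below 0.2, and at an unadjusted p below 0.05 edgeR's likelihood ratio test called 0, DESeq2 called 1 and limma-voom called 1. In bulk tissue, fewer cells of a type and less RNA per cell cannot be told apart. The p-values set a difference of the groups against the spread between these pooled libraries, and the spread between single rats is not seen.

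**Figure D1:**
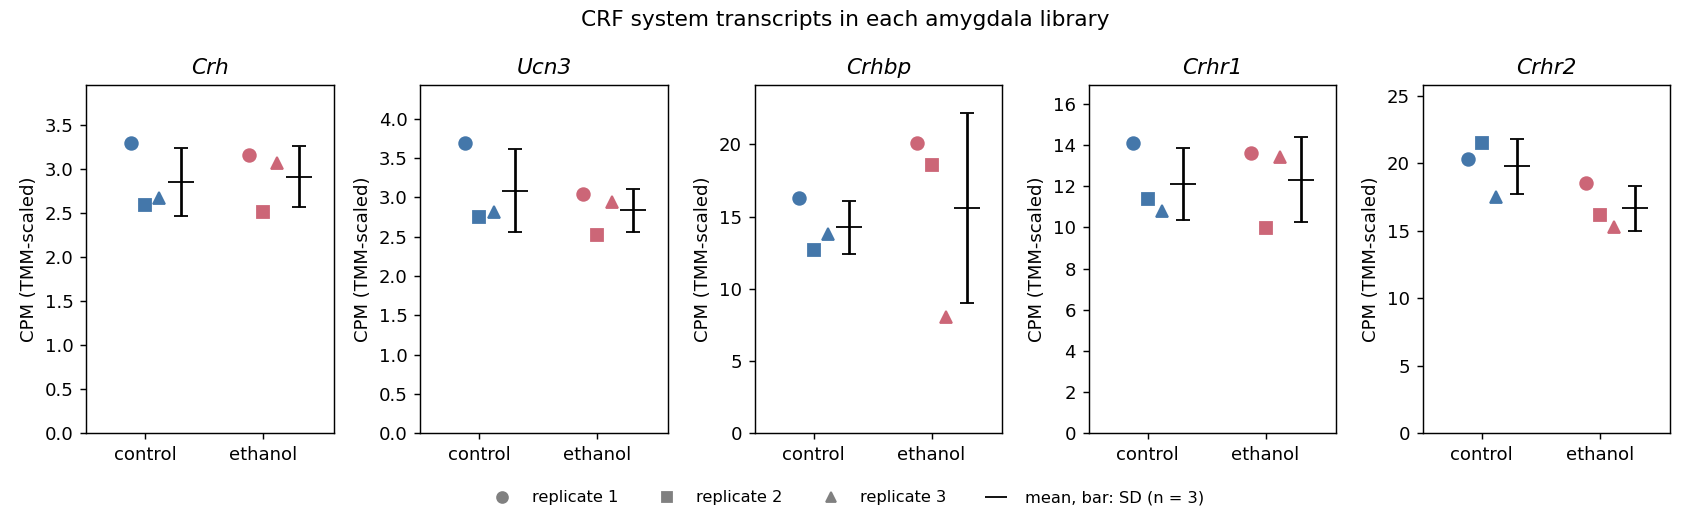
Level of the 5 tested CRF system transcripts in each amygdala library, in TMM-scaled CPM. Circles, squares and triangles mark replicates 1, 2 and 3, and the black bars show the mean and SD (n = 3). The groups overlap in every panel, and the *Crhbp* value of ethanol 3, 8.04 CPM, lies below all others.

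The peptide genes came first. *Crh* encodes the CRF precursor and lies on the minus strand at chr2:104459999-104461863 (Rnor_6.0), with 1196 exonic bases. It had 216, 184 and 169 counts in control libraries, or 3.30, 2.59 and 2.67 CPM. The ethanol libraries had 203, 162 and 214 counts, or 3.16, 2.52 and 3.07 CPM. The groups covered nearly the same range, with control 1 the highest and ethanol 2 the lowest. The means were 2.85 ± 0.392 CPM for control and 2.92 ± 0.35 CPM for ethanol (SD, n = 3). The log2 fold change was 0.03 ± 0.15 (SE), with an adjusted p of 1 by edgeR's quasi-likelihood F test (Benjamini-Hochberg). The 95% confidence interval of the fold ran from 0.799 to 1.31, so a rise or fall of *Crh* mRNA within these bounds remains possible. The interval, from 3 libraries per group, is not adjusted over all genes tested, and larger changes could also miss the adjusted threshold.

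*Ucn3*, at chr17:69959879-69966532 on the plus strand (Rnor_6.0, 1230 exonic bases), encodes urocortin 3, a ligand selective for CRF2. It was measured at 3.69, 2.75 and 2.81 CPM in control libraries and at 3.04, 2.52 and 2.94 CPM in ethanol libraries. Control 1 was the highest and the other control values lay inside the range of the ethanol group. The log2 fold change was -0.12 ± 0.16 (SE), and the 95% interval of the fold ran from 0.713 to 1.19. The adjusted p was 1 by edgeR's quasi-likelihood F test (Benjamini-Hochberg). Without control 1 the log2 fold change was 0.02.

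*Ucn*, at chr6:26602144-26602974 (Rnor_6.0), encodes urocortin, which binds both receptors. It had 0, 2 and 6 counts in control libraries and 4, 2 and 6 counts in ethanol libraries. *Ucn2*, at chr8:117727216-117728765 (Rnor_6.0), encodes urocortin 2, another CRF2 ligand. It had 1, 2 and 0 counts in control libraries and 3 counts in each ethanol library. Every ethanol value of *Ucn2* lay above every control value, but none exceeded the floor of 3 counts, so no fold is given. In the fit without a filter on low counts, the adjusted p by edgeR's quasi-likelihood F test was 1 for *Ucn* and 0.983 for *Ucn2*. Neither transcript was detectable as different at this depth.

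No CRF system gene shared exonic bases with another gene on either strand. *Ucn* lies 390 bases from *Trim54*, a muscle-type ubiquitin ligase gene on the opposite strand, in the Rnor_6.0 annotation. *Trim54* had 353 to 444 counts in control libraries and 593 to 839 counts in ethanol libraries. Its log2 fold change of 0.80 ± 0.15 (SE) had an adjusted p of 0.818 by edgeR's quasi-likelihood F test (Benjamini-Hochberg), 0.0142 by edgeR's likelihood ratio test and 0.00412 by DESeq2. The counts of *Ucn* stayed between 0 and 6 beside it. *Ucn2* lies 372 bases from the collagen gene *Col7a1* on the same strand, which had a log2 fold change of 0.22 ± 0.20 (SE).

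The sequences upstream of the peptide genes are shown because transcription of this peptide family is known to respond to cyclic AMP. The 250 bases before the start of 6 of the 7 genes were read from RefSeq (GRCr8). *Crh* was not among them. Capitals mark letters of the cyclic AMP response element TGACGTCA, its core CGTCA, and ACGTG, the core of the hypoxia response element, each searched on both strands. The core CGTCA lies within TGACGTCA, so these matches overlap. The *Ucn* promoter is chr6:30957836-30958085 and the *Ucn3* promoter is chr17:71219406-71219655, both on the plus strand and written 5′ to 3′.
Ucn: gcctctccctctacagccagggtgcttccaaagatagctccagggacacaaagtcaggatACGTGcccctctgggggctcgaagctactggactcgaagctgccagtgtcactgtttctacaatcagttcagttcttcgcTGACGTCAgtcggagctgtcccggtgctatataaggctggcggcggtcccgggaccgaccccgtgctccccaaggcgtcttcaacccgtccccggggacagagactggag
Ucn3: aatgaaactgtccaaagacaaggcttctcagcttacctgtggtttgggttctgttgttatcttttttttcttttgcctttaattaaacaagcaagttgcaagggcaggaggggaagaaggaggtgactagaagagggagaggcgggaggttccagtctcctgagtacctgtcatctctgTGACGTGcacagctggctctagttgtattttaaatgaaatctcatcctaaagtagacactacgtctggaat
TGACGTCA was present in the *Ucn* promoter, 110 bases before the start, and in none of the other 5 promoters read. Among 27457 RefSeq promoters of the same length, 1.7% hold it. The core CGTCA occurred in the promoters of *Ucn*, *Ucn3*, *Crhbp* and *Crhr2*, and is held by 19.0% of all promoters. In *Ucn3* its letters, 71 bases before the start on the minus strand, overlap ACGTG at 69 bases. ACGTG was also found in *Ucn*, 190 bases before the start, and is held by 16.9% of all promoters. No promoter read held TATAAA (13.1% of all promoters) or the glucocorticoid receptor pattern ACANNNTGT (5.62%). Only exact letters were searched, so near forms of TATAAA, such as tatataag in the *Ucn* promoter, were not counted. A match of letters is a description and not a bound site, and the *Ucn* promoter with the full element belongs to a gene with at most 6 counts in any library.

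*Crhbp*, which encodes the CRF binding protein, was the most variable of the 5 tested genes over the 6 libraries. The gene lies on the minus strand at chr2:25141471-25153334 (Rnor_6.0) with 1636 exonic bases in 7 blocks. The control libraries held 1068, 900 and 875 counts, or 16.3, 12.7 and 13.8 CPM. The ethanol libraries held 1287, 1199 and 560 counts, or 20.1, 18.6 and 8.04 CPM. Ethanol 1 and ethanol 2 lay above all control libraries and ethanol 3 lay below all of them. The group means were 14.3 ± 1.88 CPM (SD, n = 3) and 15.6 ± 6.56 CPM (SD, n = 3), a coefficient of variation of 13.1% in controls and 42.1% after ethanol, against 3.19% from counting alone. The log2 fold change was 0.13 ± 0.30 (SE), and the 95% interval of the fold ran from 0.67 to 1.78, the widest of the 5 genes. The adjusted p was 1 by edgeR's quasi-likelihood F test (Benjamini-Hochberg).

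The difference of *Crhbp* turned on ethanol 3. Without this library the log2 fold change was 0.44, with an unadjusted p of 0.00741 and an adjusted p of 0.385 by edgeR's quasi-likelihood F test. In that fit 1629 of 18356 genes had an unadjusted p below 0.05, against 753 of 18141 with all libraries. Without ethanol 1 the log2 fold change of *Crhbp* was -0.10 and without ethanol 2 it was -0.02. The within-group SD of *Crhbp* was 0.533 on the log2 scale, above that of 98.8% of the 2044 genes within 0.5 log2 units of its level. Without ethanol 3 it was 0.158, above that of 81.1% of 2196 such genes. In ethanol 3, the summed markers of hypothalamic peptide neurons were higher and those of basolateral glutamatergic neurons lower than in every other library. Not every marker followed. In the other libraries the basolateral sums were 814, 1230 and 988 CPM for control and 1190 and 1430 CPM for ethanol. The hypothalamic sums were 123, 20.4 and 101 CPM for control and 38.3 and 24.6 CPM for ethanol. Both sums overlapped between these groups. The part of either cell type in the *Crhbp* values, with or without ethanol 3, was not tested.

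The receptors were compared next. *Crhr1*, at chr10:92191473-92233662 on the plus strand (Rnor_6.0, 4154 exonic bases in 15 blocks), encodes CRF1. Its levels were 14.1, 11.4 and 10.8 CPM in control libraries and 13.6, 9.95 and 13.4 CPM in ethanol libraries. The ethanol group held both the lowest value and the second and the third highest. The means were 12.1 ± 1.72 CPM (SD, n = 3) and 12.3 ± 2.03 CPM (SD, n = 3). The log2 fold change was 0.02 ± 0.15 (SE), the 95% interval of the fold ran from 0.799 to 1.29, and the adjusted p was 1 by edgeR's quasi-likelihood F test (Benjamini-Hochberg).

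*Crhr2*, at chr4:85286371-85329374 on the minus strand (Rnor_6.0, 3476 exonic bases in 14 blocks), encodes CRF2. The control libraries held 1326, 1524 and 1109 counts, or 20.3, 21.5 and 17.5 CPM. The ethanol libraries held 1185, 1042 and 1066 counts, or 18.5, 16.2 and 15.3 CPM. The values of control 1 and control 2 exceeded all ethanol values, but control 3 lay below ethanol 1, so the groups overlapped. The mean was 19.7 ± 2.04 CPM for control and 16.7 ± 1.63 CPM for ethanol (SD, n = 3). The log2 fold change was -0.25 ± 0.10 (SE), or a fold of 0.843 with a 95% interval from 0.713 to 0.998. The unadjusted p was 0.0482 and the adjusted p was 1 by edgeR's quasi-likelihood F test (Benjamini-Hochberg), and the exact 2-sided permutation test over the 6 libraries gave p = 0.2, where the smallest it allows is 0.1.

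The sign of the *Crhr2* difference held when each library was left out in turn, with log2 fold changes from -0.33 to -0.18. The unadjusted p rose above 0.05 without control 1 (0.105), control 2 (0.149), ethanol 2 (0.117) or ethanol 3 (0.136). *Crhr2* moved in the direction of the choroid plexus markers, of which 5 of 10 tested were lower at an unadjusted p below 0.05 and 0 were higher, with a median log2 fold change of -1.82. Control 2 was the highest library in both. Ethanol 3 had the lowest *Crhr2* level but a choroid plexus sum of 499 CPM, the highest of its group, of which the marker *Ttr* alone gave 425 CPM. Without *Ttr* these markers summed to 75.7, 169 and 100 CPM in control libraries and to 9.21, 11.8 and 74.1 CPM in ethanol libraries. Markers of vascular smooth muscle, another cell type known to express CRF2, summed to 57.3, 42.4 and 82.5 CPM in control libraries and to 50.2, 58.6 and 60.6 CPM in ethanol libraries. The part of either cell type in the *Crhr2* difference was not tested.

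**Figure D2:**
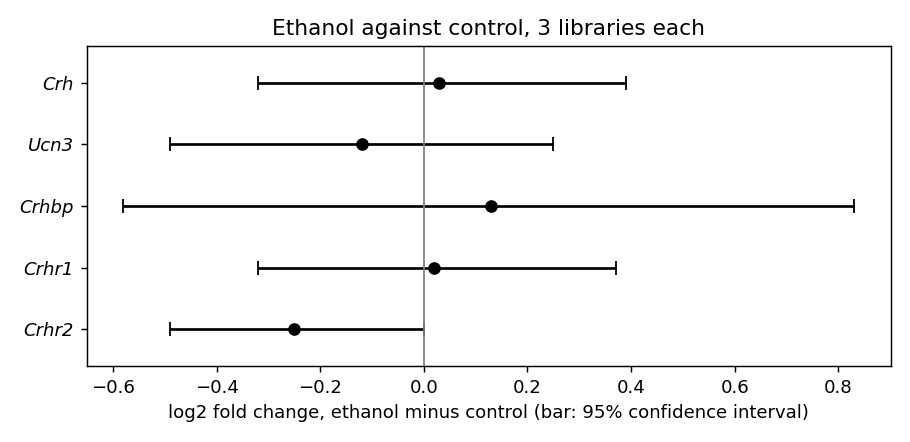
Log2 fold change of each tested CRF system gene, ethanol minus control, with its 95% confidence interval from edgeR's quasi-likelihood fit (3 libraries per group). The interval of *Crhbp* is the widest, from -0.58 to 0.83, and that of *Crhr2* ends just below 0.

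Levels were compared between genes per kilobase of exon. *Crhbp* was the most abundant at 9.12 CPM per kb, averaged over the 6 libraries, above 61.4% of all genes tested. *Crhr2* followed at 5.24 and *Crhr1* at 2.93 CPM per kb. *Crh* (2.41) and *Ucn3* (2.40) were the lowest of the tested genes, above 38.1% and 38.0% of all genes on the same scale. *Ucn* at 0.0884 and *Ucn2* at 0.0335 CPM per kb lay far below. The level of *Crhbp* exceeded that of *Crhr2* in 6 of 6 libraries, although the ranges overlapped because of ethanol 3. *Crhr2* exceeded *Crhr1* in 6 of 6 libraries with ranges that did not overlap, 4.41 to 6.17 against 2.39 to 3.38 CPM per kb. *Crhr1* exceeded *Crh* in 6 of 6 libraries with overlapping ranges. *Crh* and *Ucn3* were close in every library. The ratio of *Crh* to *Ucn3* per exonic length was 0.922, 0.970 and 0.976 in control libraries and 1.07, 1.03 and 1.07 after ethanol. *Ucn3* was thus the higher in all 3 controls and *Crh* in all 3 ethanol libraries, by less than the counting error of the ratio, 10.2%. This ratio was looked at after the values were seen and was not tested. Exonic length here is that of all annotated exons of a gene, whichever isoforms the tissue makes.

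**Figure D3:**
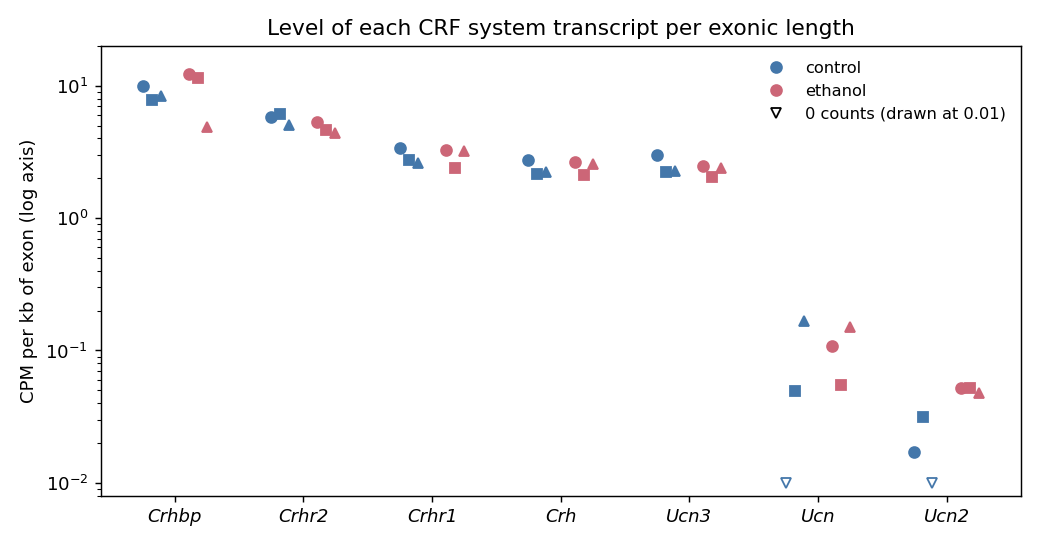
Level of the 7 CRF system transcripts per kilobase of exon in each library, on a log axis. Circles, squares and triangles mark replicates 1, 2 and 3. *Crhbp* averages 9.12 CPM per kb and *Ucn2* 0.0335, and open symbols mark libraries with 0 counts.

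Ratios within a library do not depend on the scaling between libraries, and 3 of them were compared per exonic length. The ratio of *Crh* to *Crhbp* sets the peptide against the protein that binds it. It was 0.277, 0.280 and 0.264 in control libraries and 0.216, 0.185 and 0.523 in ethanol libraries. The control values were close together, while the ethanol values lay on both sides of them. The log2 difference was 0.01, with p = 1 in the exact 2-sided permutation test. Without ethanol 3 it was -0.45, and ethanol 1 and ethanol 2 then lay below all controls. The exact permutation p was 0.1, the smallest that 3 against 2 libraries allow. Ethanol 3 was the only ethanol library above the controls, so leaving it out fixed this separation. That p was not adjusted over the 3 ratios.

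The ratio of *Crhr1* to *Crhr2* was 0.580, 0.444 and 0.518 in control libraries and 0.614, 0.514 and 0.730 in ethanol libraries. Ethanol 1 and ethanol 3 lay above all controls and ethanol 2 within their range. The means were 0.514 ± 0.0683 (SD, n = 3) and 0.619 ± 0.108 (SD, n = 3), and the log2 difference of 0.26 had p = 0.3 in the exact 2-sided permutation test and 0.9 after Benjamini-Hochberg adjustment over the 3 ratios. Without ethanol 3 the log2 difference was 0.14, and without control 2 it was 0.16. *Crhr2* thus exceeded *Crhr1* by 1.37-fold to 2.25-fold in every library.

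The ratio of *Crh* to *Crhr1* was the most even of the 3. It was 0.816, 0.791 and 0.854 in control libraries and 0.810, 0.879 and 0.799 in ethanol libraries. The groups overlapped, and the log2 difference of 0.02 had p = 0.7 in the exact 2-sided permutation test, and without ethanol 3 it was 0.04. The coefficient of variation of this ratio over the 6 libraries was 4.17%, less than the 8.10% from counting alone. *Crh* by itself varied by 11.6% and *Crhr1* by 13.8% over the same libraries.

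**Figure D4:**
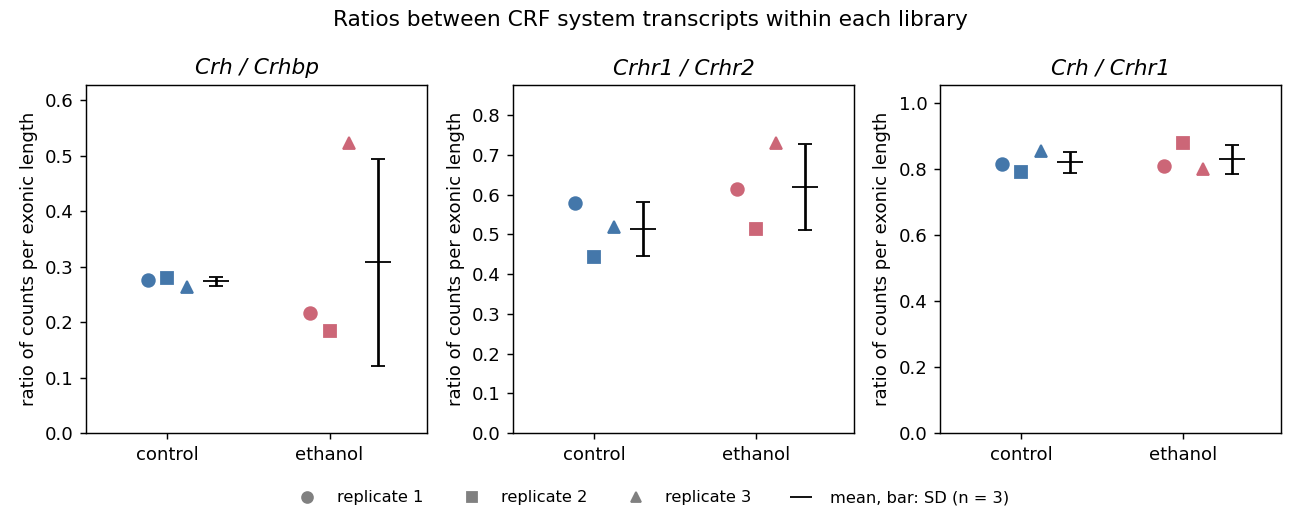
Ratios between CRF system transcripts within each library, per exonic length, with the mean and SD of each group (n = 3). Circles, squares and triangles mark replicates 1, 2 and 3. The *Crh* to *Crhr1* ratio stays between 0.791 and 0.879, whereas the *Crh* to *Crhbp* ratio of ethanol 3, 0.523, lies above all others.

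*Crh*, *Crhr1* and *Ucn3* had their highest values in the same libraries, from both groups. Control 1, ethanol 1 and ethanol 3 held the 3 highest values of each of these genes. The margin was small for *Ucn3*, with 2.94 CPM in ethanol 3 against 2.81 CPM in control 3, where the variation from counting alone is 7.14%. The central amygdala markers, which include peptides of the GABA neurons among which CRF cells lie, summed to 803, 592 and 645 CPM in control libraries and to 815, 679 and 806 CPM in ethanol libraries. The 6 markers of medial amygdala and hypothalamic-type glutamatergic neurons summed to 154, 129 and 128 CPM and to 164, 114 and 199 CPM. Both sums were highest in the same 3 libraries as *Crh*, *Crhr1* and *Ucn3*, but single markers did not all follow. *Sst* of the first list and *Lhx9* of the second were highest in control 2. *Crhbp* and *Crhr2* did not follow the sums either, as both were lowest in ethanol 3. The part of these cell types in the CRF values was not tested.

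Likeness of pattern was measured as the root mean square difference between centred log2 CPM values over the 6 libraries, among 13750 genes with a symbol and above 1 CPM in every library. *Crh* and *Crhr1* differed by 0.0547, with 8 genes closer to *Crh* than *Crhr1* was, against a median difference of 0.18 between *Crh* and all genes. *Crh* and *Ucn3* differed by 0.0792. *Crhbp* lay 0.466 from *Crh*, with 13489 of the 13750 genes closer to *Crh*. The genes nearest to *Crh* were *Fbxl17l1* (0.0434), *Haus8* (0.0435) and *Nova1* (0.0447), and those nearest to *Crhr1* were *P2rx2* (0.047), *Haus8* (0.0502) and *Crh* itself. For *Ucn3* they included *Tspan1* (0.0514) and *Ssmem1* (0.052), and for *Crhr2* they were *Zfp773-ps1* (0.0522), *Adamts19* (0.0522) and *Slc9b2* (0.0524). Counting alone gives a coefficient of variation of 7.23% for *Crh* and 7.14% for *Ucn3*, more than their differences from the genes nearest to them. The ranks of genes near *Crh* and *Ucn3*, with that of *Crhr1*, are thus not resolved. All of these values rest on 6 libraries and are descriptions.

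The gene nearest to *Crhbp* was *Pappa2*, a metalloprotease gene, at 0.094, followed by *LOC102552372* at 0.152 and *Vip* at 0.16, where the median over all genes was 0.446. *Pappa2* was measured at 10.6, 8.62 and 10.2 CPM in control libraries and at 15.3, 14.6 and 5.56 CPM in ethanol libraries. *Vip*, the gene of vasoactive intestinal peptide, a marker of a class of cortical and basolateral interneurons, was measured at 27.0, 21.1 and 24.1 CPM and at 26.8, 28.3 and 15.3 CPM. Both shared with *Crhbp* the low value in ethanol 3. Without this library *Pappa2* lay at 0.1 from *Crhbp*, with 17 genes closer, and *Vip* at 0.136 with 111 genes closer, where the median was 0.263.

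**Figure D5:**
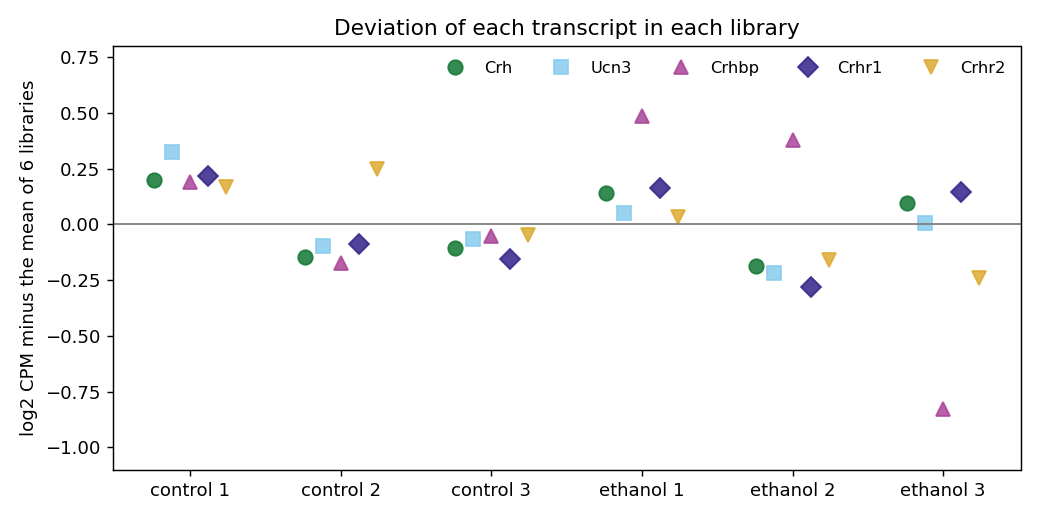
Deviation of the 5 tested CRF system transcripts from their mean over the 6 libraries, in log2 CPM. *Crh*, *Crhr1* and *Ucn3* lie above 0 together in control 1, ethanol 1 and ethanol 3, though *Ucn3* only just so in ethanol 3. *Crhbp* in ethanol 3 lies farthest from 0.

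The genes around the CRF system were read from 4 lists with 44 genes in all. Of these, 40 had enough reads to be tested, and 0 of the 40 had an adjusted p below 0.2 by edgeR's quasi-likelihood F test (Benjamini-Hochberg), beside 0% of all genes. At an unadjusted p below 0.05 the count was 0 as well, where 4.15% of all genes were called. The groups did not overlap for 2 of the 40 genes, which is 5% against 8.85% of all genes tested. The median log2 fold change was 0.03, beside 0.006 over all genes.

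The 6 prohormone processing genes, which cut, trim and amidate neuropeptide precursors such as that of CRF, had 5 tested members. Their log2 fold changes lay between -0.18 and 0.10 with a median of 0.045. Those with the highest mean CPM were *Cpe*, carboxypeptidase E, with 2350 ± 227 CPM in controls and 2290 ± 72.8 CPM after ethanol (SD, n = 3), and *Scg5*, the chaperone of a prohormone convertase, with 411 ± 25.2 and 429 ± 26.5 CPM. *Pcsk1n* had 1 count in all libraries together. Its exons share 0 bases with other annotated genes, but reads left out for aligning to several places are not seen in the counts, so this value is not read as absence of the transcript.

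All 15 genes of receptor coupling and desensitization were tested, and 11 had a positive and 4 a negative log2 fold change, with a median of 0.043, where all genes tested split into 9539 positive and 8602 negative. *Grk2*, a kinase that phosphorylates active receptors, was measured at 206, 207 and 215 CPM in control libraries and at 227, 216 and 225 CPM in ethanol libraries. All ethanol values lay above all controls, and the log2 fold change was 0.09 ± 0.06 (SE). *Arrb2*, the arrestin that binds phosphorylated receptors, was measured at 59.3, 58.5 and 58.6 CPM in control libraries and at 55.9, 56.0 and 53.8 CPM in ethanol libraries. All its ethanol values lay below all controls, and the log2 fold change was -0.09 ± 0.05 (SE). Neither passed the test, with an unadjusted p of 0.165 for *Grk2* and 0.115 for *Arrb2* and an adjusted p of 1 for both by edgeR's quasi-likelihood F test. *Gnas*, the stimulatory G protein subunit, was at 1400 ± 41.4 CPM in controls and 1360 ± 34.6 CPM after ethanol, and *Dlg4*, a postsynaptic scaffold, at 941 ± 15.3 and 968 ± 55.3 CPM (SD, n = 3).

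Of the 14 partners of the stress axis, 11 were tested, of which 3 had a positive and 8 a negative log2 fold change, from -0.32 to 0.17 with a median of -0.018. The highest were *Adcyap1r1*, the receptor of the peptide PACAP, at 336 ± 14.0 CPM in controls and 349 ± 32.9 CPM after ethanol, and *Nr3c1*, the glucocorticoid receptor, at 110 ± 9.66 and 109 ± 5.38 CPM (SD, n = 3). *Npy* and *Avpr1b* were listed at 0 in every library. The limit given for *Pcsk1n* holds for both, with 0 shared exonic bases, and the 0 is not read as absence of expression in the amygdala. *Mc2r* had 2, 1 and 1 counts in control libraries and 0 in ethanol libraries, all within the floor of 3 counts. The 9 regulators of *Crh* transcription were all tested, with log2 fold changes from -0.12 to 0.33 and a median of 0.03. Among them *Crtc1*, a coactivator of cyclic AMP responsive transcription, was at 198 ± 16.1 CPM in controls and 205 ± 5.24 CPM after ethanol, and the transcription factor gene *Atf2* at 81.7 ± 4.24 and 87.5 ± 6.92 CPM (SD, n = 3).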

How the data were processed

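RNA-seq of amygdala RNA was read from 6 libraries, 3 control and 3 ethanol, grouped by the sample titles. The authors deposited raw counts, whole numbers of reads per gene without normalization. Per the file headers, reads were counted with featureCounts 1.6.3 over the exons of the Rnor_6.0 annotation with the reverse-stranded setting, leaving out multi-mapping reads and reads that overlapped several genes. The submitters' processing notes also name STAR 2.7.0f, FastQC 0.11.8, R 3.6.2, edgeR and limma.

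Symbols from the RefSeq gene table matched 29322 of 38445 gene identifiers. The test behind the study's threshold is not given in the sources used here. Counts were fitted in R 4.3.3 with edgeR 4.0.16, using filterByExpr (minimum 10 counts, 15 in total), TMM scaling, the quasi-likelihood F test and Benjamini-Hochberg adjustment over 18141 genes, with a threshold of 0.2. The log2 CPM carried a prior count of 2. Exact 2-sided permutation tests went through 20 label swaps. The fit was tested on simulated data. The counts of each pair of libraries within a group differed by more than sampling noise (chi-square per degree of freedom 14.3 to 67.6). Alternatives were other scalings and filters, the likelihood ratio test, DESeq2 1.42.0, limma-voom (limma 3.58.1), a replicate block and leaving out each library. The genes named are the 7 members, the list genes with an unadjusted p below 0.05 or groups that do not overlap, the 2 of each list with the highest mean CPM, neighbouring genes and the 3 genes of the most similar pattern, of which 1 is not reported here. Members and lists were chosen with earlier results of these data known.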

Additional observations from a re-analysis of the deposited data

How the results depend on the processing

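Under every alternative, 0 CRF system genes and 0 genes of the 4 pathway lists passed the adjusted threshold of 0.2. Over the whole table the count was 0 by edgeR's quasi-likelihood test, 77 by edgeR's likelihood ratio test and 74 by DESeq2, and it ranged from 0 to 83 when each library was left out in turn, with 4 calls without ethanol 1 and 83 without ethanol 3. The ethanol libraries left without ethanol 3 were those with choroid plexus sums of 14.6 and 16.1 CPM, and the cause of the calls was not tested. Leaving out libraries moved the log2 fold change of *Crh* between -0.03 and 0.14, of *Crhr1* between -0.05 and 0.16, of *Crhbp* between -0.10 and 0.44 and of *Ucn3* between -0.20 and 0.02, so none of the 4 kept its sign throughout. *Crh* turned negative without control 2, control 3, ethanol 1 or ethanol 3, as did *Crhr1*. With scaling by library size alone that of *Crhr1* was 0.00. The log2 difference of the *Crh* to *Crhbp* ratio ranged from -0.45 to 0.30, of *Crhr1* to *Crhr2* from 0.14 to 0.39 and of *Crh* to *Crhr1* from -0.03 to 0.04, with a turn of sign without control 3 (-0.02) or ethanol 3 for the first and without control 2 (-0.01) or ethanol 2 for the third. The log2 fold changes of *Crhr2*, *Trim54*, *Trim55*, *Mpv17*, *Grk2* and *Arrb2* kept their sign under each alternative. List medians and *Col7a1* were not recomputed. The spread of *Crhbp* and the likeness of *Pappa2* without ethanol 3 were added after the data were seen. Control and ethanol libraries share replicate numbers but come from different rats, and their deviations from the group mean correlated by 0.0264, 0.388 and 0.211 for numbers 1, 2 and 3, so the numbers were not taken as pairs. With the replicate block, 0 genes passed in all, 1015 in place of 753 had an unadjusted p below 0.05, and the log2 fold change of *Crhr2* was -0.24 with an adjusted p of 0.793. The ratios then differed by 0.01, 0.26 and 0.02, in the order above, and the smallest p of that exact test is 0.25. With 3 pooled libraries per group, intervals stayed wider than counting error, and *Ucn* and *Ucn2* were limited by depth.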
